A study of Mus musculus with 8 samples.

Results

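Reactive astrocyte genes are the transcripts that astrocytes are known to raise after injury, infection or other insults to the brain. The 31 genes described here were chosen by symbol, with earlier results of these data known, as genes of 4 kinds: 11 shared by several forms of reactivity, 4 typical of the inflammation form, 11 typical of the injury form and 5 others linked to reactive glia. All 31 were found among the 56691 gene IDs of the count table, and all 31 were among the 19912 genes with enough counts to test. Ribosome-associated mRNA was sequenced from the VTA (ventral tegmental area), a midbrain site rich in dopamine neurons, of hemizygous (Y-bearing) mice. The knockdown group (n = 4, replicates 2 to 5) was labelled Ogt flox+/Y and the control group (n = 4, replicates 3 to 6) Ogt flox-/Y. Ogt encodes the enzyme that attaches O-GlcNAc, a single sugar, to nuclear and cytoplasmic proteins. Both groups received the same pair of viruses, AAV-TH-Cre, named for tyrosine hydroxylase (TH), the enzyme that marks dopamine neurons, and the Cre-dependent AAV-Flex-NBL10, which adds an HA-tagged ribosomal protein, so the controls carried Cre and tagged ribosomes too. The labels call the cells dopaminergic neurons, and give neither the animals' age nor whether a library is 1 animal or a pool. The p-values therefore measure the spread between these libraries.

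Astrocytes respond to damage and to cytokines by enlarging, building more intermediate filament and secreting protease inhibitors, acute-phase proteins and matrix proteins. Signals of the interleukin-6 family act on them through the receptor subunit gp130, the kinases JAK1 and JAK2 and the transcription factor STAT3, whose phosphorylation the series title names. Several of these genes are also used by other cells, for example Vim, Nes, Tm4sf1 and Srgn by blood vessels and Cd14 and Plaur by myeloid cells.

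The libraries held between 49802305 and 147747191 counts. Ogt itself lay between 108 and 159 CPM (each gene's share of its library's counts, in parts per 1000000, after TMM scaling between libraries) in the controls and between 36.0 and 74.4 CPM in the knockdown libraries, 2.53-fold lower (log2 fold change -1.34, edgeR adjusted p = 0.00243). Markers of cells other than dopamine neurons were abundant: 18 astrocyte markers summed to 1880 to 6495 CPM in the controls and 7433 to 10510 CPM in the knockdown libraries, while 8 dopamine neuron markers summed to 1154 to 2509 and 344 to 546 CPM. Control replicate 3 stood apart. Its 10 endothelial markers summed to 1033 CPM against 15.3 to 22.8 CPM in the other controls, its 10 mural cell and fibroblast markers to 465 CPM against 15.4 to 19.96 CPM, and its astrocyte markers to 1880 CPM against 4981 to 6495 CPM. Its 8 dopamine neuron markers summed to 2509 CPM against 1154 to 1430 CPM in the other controls. Calls are therefore given with and without control replicate 3.

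Reactive astrocyte genes were mostly higher in the knockdown libraries. With all 8 libraries 17 of the 31 rose, none fell and 14 did not pass the test (edgeR quasi-likelihood test, adjusted p under 0.05 over all genes tested). Over all 19912 genes 13.4% were called higher and 15.1% lower. At an unadjusted p under 0.05 no member was lower either, nor with DESeq2, whereas limma-voom called Amigo2 lower. The median log2 fold change was 1.51 over the 31 genes and 0.002 over all genes tested. Of the 17 that rose, 16 did so by at least 2-fold, and 7.87% of all genes tested were called higher with such a fold. In 16 of the 31 every knockdown library lay above every control library, as it did in 17.1% of all genes. In ribosome-associated mRNA, more cells of a type, more RNA per cell and more RNA carried over from untagged cells cannot be told apart.

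**Figure D1:**
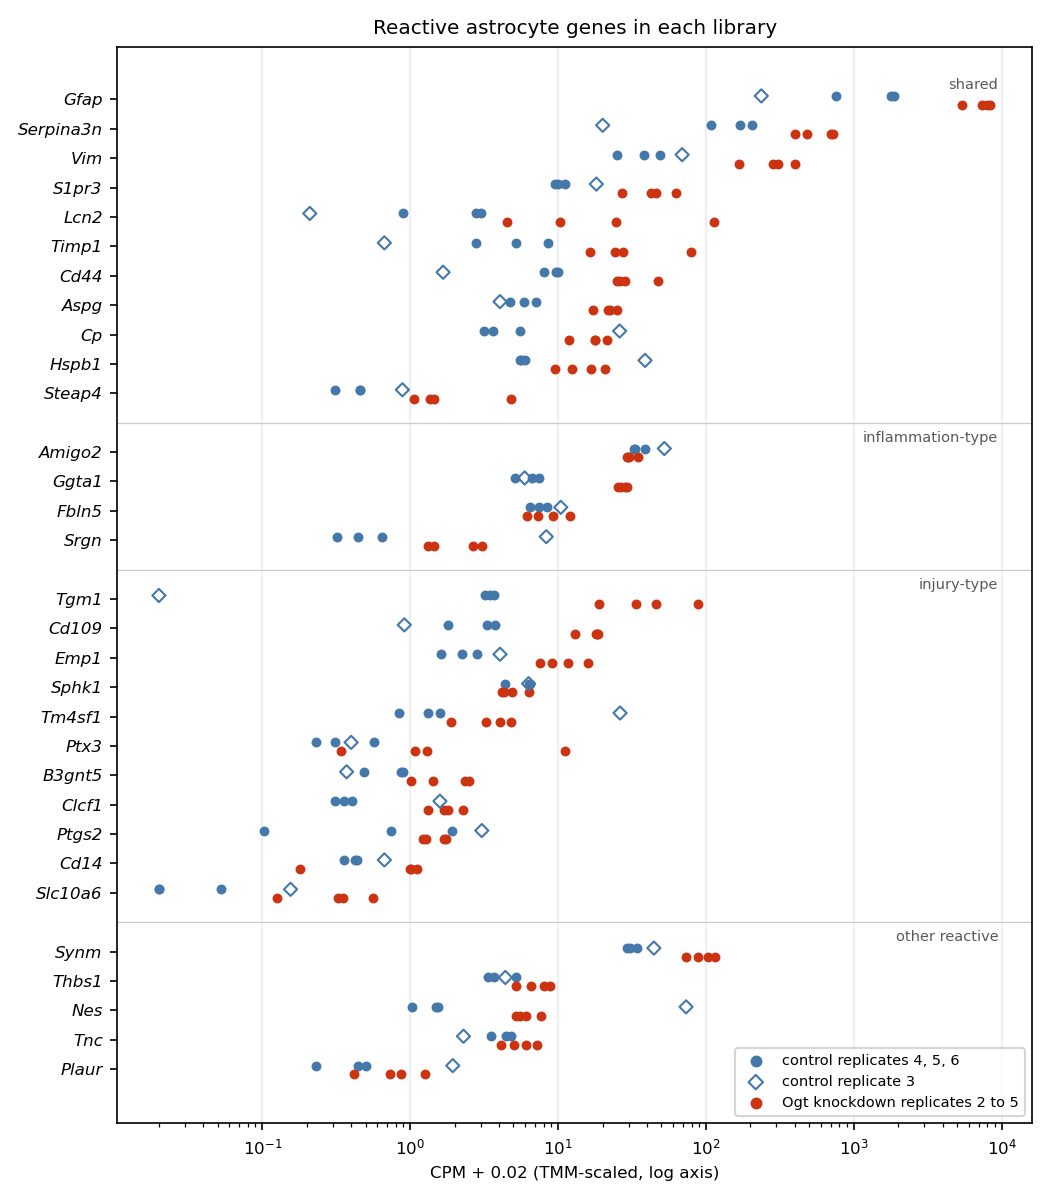
Level of each of the 31 genes in each library, in CPM with 0.02 added, on a log axis, grouped by kind; filled circles are control replicates 4 to 6 (blue) and knockdown replicates 2 to 5 (red), and open diamonds are control replicate 3. The diamonds lie far to the right of the other controls for Nes, Tm4sf1, Srgn, Hspb1 and Cp and to the left for Gfap, Serpina3n, Lcn2 and Tgm1.

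With control replicate 3 left out, 24 of the 31 genes rose, none fell and 7 did not pass, with a median log2 fold change of 2.06. The background was then also higher: of 20626 genes tested, 18.1% were called higher and 16.8% lower, and the median was 0.065. Every knockdown library lay above every remaining control in 23 of the 31 genes, against 23.1% of the 19912 genes. All 17 genes called with control replicate 3 were also called without it. The 7 added genes were Hspb1, Cp, Srgn, Clcf1, Slc10a6, Tm4sf1 and Nes, and control replicate 3 was the highest control in each of them. One of the 24, Slc10a6, entered this test through the knockdown libraries alone, so its call is no support for the count. The 7 genes called neither way were Fbln5, Amigo2, Sphk1, Ptgs2, Cd14, Tnc and Plaur.

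**Figure D2:**
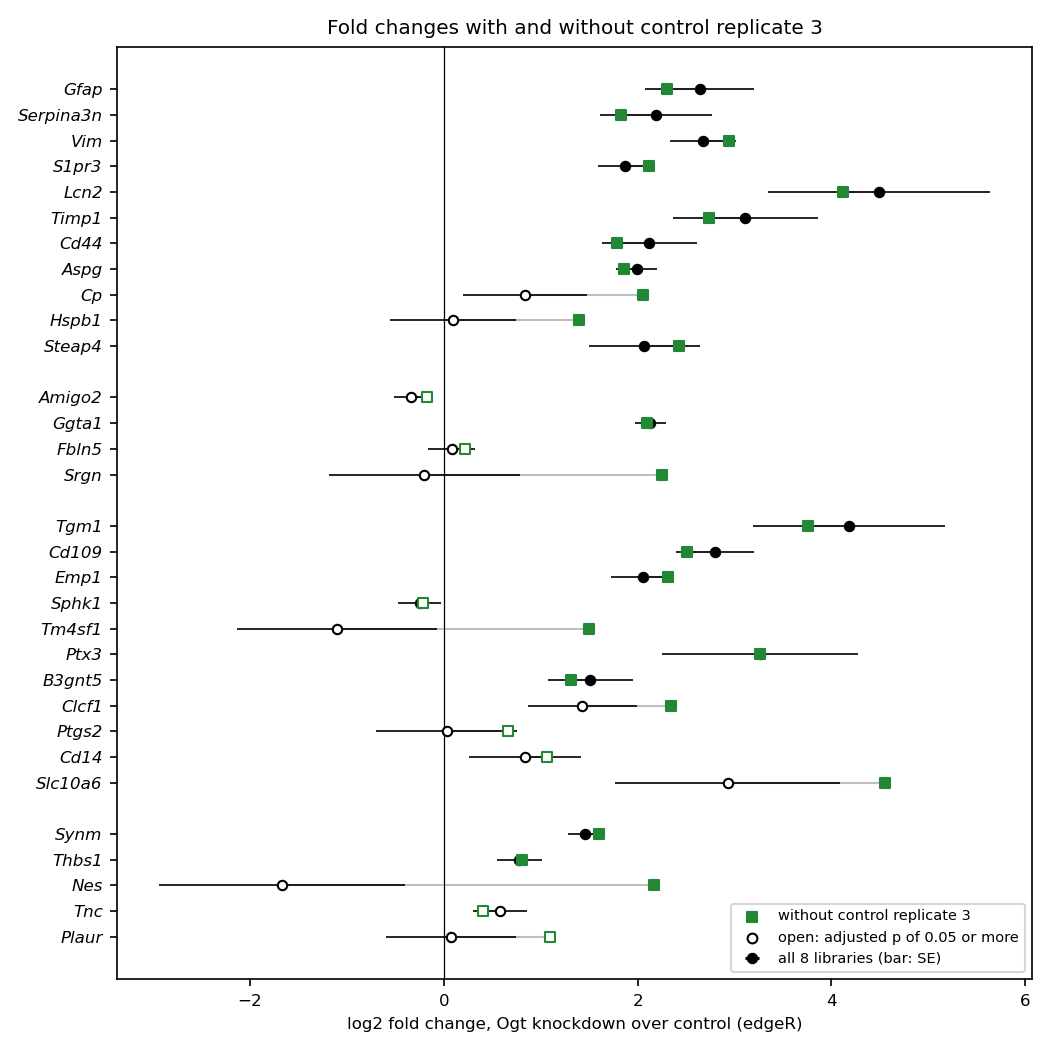
Log2 fold change (knockdown over control) of each gene, from the fit with all 8 libraries (circles, bars are the standard error) and the fold change from the fit without control replicate 3 (green squares); filled symbols passed an adjusted p under 0.05. Nes, Tm4sf1 and Srgn lie below 0 in the first fit and above 0 in the second, and Lcn2 and Tgm1 have the highest values with all libraries.

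The stretch around a gene's start, its promoter, is where STAT proteins and AP-1, another factor of the injury response, can bind. RefSeq promoters (build GRCm38.p6, 250 bases before to 50 after the annotated start) were at hand for 27 of the 31 genes, all but Clcf1, Cd109, Cd14 and Thbs1. The STAT letters TTCNNNGAA stood in 6 of the 37 promoters of these genes (16.2%) and in 8.3% of all 32851 promoters. The AP-1 letters TGANTCA stood in 5 of the 37 (13.5%) and in 7.81% of all. Both member counts hold the same Sphk1 stretch 2 times, in 2 overlapping promoters. By gene, 5 of the 27 had STAT letters and 4 had AP-1 letters, with no share by gene taken over all promoters. Both patterns read the same on either strand, so 1 search covers both. The promoters shown are those with STAT letters and those of the genes with the 4 highest fold changes, and they are read along the gene, 5′ to 3′, with the STAT and AP-1 letters in capitals. In Gfap the STAT letters begin 2 bases before the start, in Tgm1 173 and 64 bases before it, in Steap4 116 and in Sphk1 41. In Sphk1 AP-1 letters begin 50 bases before the start, and 1 of the 2 overlapping promoters that hold both patterns is shown. Further annotated promoters of Sphk1, Emp1 and Tgm1 hold neither pattern and are not shown. In Emp1 the STAT letters begin 120 and 22 bases before the start and the AP-1 letters 145 and 25, the nearer pair overlapping each other. Lcn2, Timp1 and Ptx3 have neither pattern in this window. A match describes letters and was not tested as a binding site.
Gfap (chr11:102897151-102897450, minus strand): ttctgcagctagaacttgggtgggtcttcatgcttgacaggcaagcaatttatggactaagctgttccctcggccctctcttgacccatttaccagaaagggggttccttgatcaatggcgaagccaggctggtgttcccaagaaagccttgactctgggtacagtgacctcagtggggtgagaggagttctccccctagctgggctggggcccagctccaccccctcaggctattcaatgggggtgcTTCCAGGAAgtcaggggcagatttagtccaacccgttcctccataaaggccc
Tgm1 (chr14:55713443-55713742, minus strand): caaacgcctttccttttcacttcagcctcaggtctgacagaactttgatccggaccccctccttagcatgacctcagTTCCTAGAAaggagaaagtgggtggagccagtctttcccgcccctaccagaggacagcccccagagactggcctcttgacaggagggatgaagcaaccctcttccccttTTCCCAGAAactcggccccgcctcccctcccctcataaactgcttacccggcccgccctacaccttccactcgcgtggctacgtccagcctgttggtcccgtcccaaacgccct
Emp1 (chr6:135362681-135362980, plus strand): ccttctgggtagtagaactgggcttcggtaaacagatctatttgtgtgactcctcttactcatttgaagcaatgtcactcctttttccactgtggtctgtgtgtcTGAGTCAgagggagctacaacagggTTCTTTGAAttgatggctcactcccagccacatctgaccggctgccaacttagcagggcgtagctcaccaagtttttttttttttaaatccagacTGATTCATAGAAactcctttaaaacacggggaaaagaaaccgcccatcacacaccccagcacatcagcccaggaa
Steap4 (chr5:7960222-7960521, plus strand): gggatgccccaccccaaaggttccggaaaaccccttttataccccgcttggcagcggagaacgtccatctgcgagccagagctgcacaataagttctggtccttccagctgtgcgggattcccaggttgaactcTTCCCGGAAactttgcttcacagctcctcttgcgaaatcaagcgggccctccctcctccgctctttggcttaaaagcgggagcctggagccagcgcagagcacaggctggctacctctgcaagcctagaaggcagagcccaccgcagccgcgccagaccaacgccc
Sphk1 (chr11:116531587-116531886, plus strand): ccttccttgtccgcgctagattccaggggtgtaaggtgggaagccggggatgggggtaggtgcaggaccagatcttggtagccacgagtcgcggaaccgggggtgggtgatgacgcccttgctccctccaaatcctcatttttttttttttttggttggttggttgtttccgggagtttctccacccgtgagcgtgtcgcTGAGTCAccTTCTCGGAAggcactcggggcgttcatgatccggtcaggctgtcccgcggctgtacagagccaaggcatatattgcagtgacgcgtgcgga
Lcn2 (chr2:32387690-32387989, minus strand): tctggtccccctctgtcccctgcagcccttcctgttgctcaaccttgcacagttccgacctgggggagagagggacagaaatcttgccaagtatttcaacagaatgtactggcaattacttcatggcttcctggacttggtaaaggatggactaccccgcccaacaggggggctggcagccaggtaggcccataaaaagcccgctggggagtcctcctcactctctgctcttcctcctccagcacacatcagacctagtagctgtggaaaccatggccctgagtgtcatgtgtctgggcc
Ptx3 (chr3:66219637-66219936, plus strand): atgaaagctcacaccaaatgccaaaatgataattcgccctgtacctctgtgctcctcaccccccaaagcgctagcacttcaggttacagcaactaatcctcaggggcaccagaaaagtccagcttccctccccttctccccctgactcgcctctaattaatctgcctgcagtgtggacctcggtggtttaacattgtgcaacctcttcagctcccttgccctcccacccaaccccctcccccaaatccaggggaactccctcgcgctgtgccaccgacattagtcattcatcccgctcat
Timp1 (chrX:20869916-20870215, plus strand): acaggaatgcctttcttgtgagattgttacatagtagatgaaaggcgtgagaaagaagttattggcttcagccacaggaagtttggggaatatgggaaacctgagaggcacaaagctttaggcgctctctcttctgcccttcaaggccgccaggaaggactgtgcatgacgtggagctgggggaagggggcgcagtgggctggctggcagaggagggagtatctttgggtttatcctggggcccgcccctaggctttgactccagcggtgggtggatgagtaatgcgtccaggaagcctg

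Intermediate filaments are the class most used to see reactive astrocytes. Gfap, the astrocyte filament protein, stood at 237, 760, 1793 and 1860 CPM in control replicates 3 to 6 and at 8401, 5372, 7973 and 7336 CPM in knockdown replicates 2 to 5. The lowest knockdown library was thus above every control, and control replicate 3 was the lowest of all. The mean ± SD went from 1162 ± 796 CPM to 7270 ± 1339 CPM (n = 4 each). Gfap rose 6.25-fold (log2 2.64, SE 0.56, edgeR adjusted p = 0.00789), and 4.93-fold without control replicate 3 (adjusted p = 0.000583). Vim, vimentin, which fills immature and reactive astrocytes and also vessels, stood at 69.1, 25.2, 49.0 and 38.1 CPM in the controls and at 283, 400, 168 and 306 CPM in the knockdown libraries. It did not overlap between the groups and rose 6.38-fold (log2 2.67, SE 0.34, adjusted p = 0.000783), and 7.69-fold without control replicate 3. Synm, synemin, a filament partner of vimentin and GFAP, stood at 44.5, 29.0, 34.4 and 30.4 CPM against 116, 103, 88.7 and 73.3 CPM. Its groups were also apart, and it rose 2.75-fold (log2 1.46, SE 0.18, adjusted p = 0.000624), and 3.03-fold without control replicate 3.

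Nes, nestin, a filament of progenitors, reactive astrocytes and vessel cells, depended on 1 library. It stood at 73.4 CPM in control replicate 3 and at 1.002, 1.48 and 1.51 CPM in the other controls, against 6.01, 7.69, 5.17 and 5.49 CPM in the knockdown libraries. With all libraries its log2 fold change was -1.67 (SE 1.27, adjusted p = 0.361). It rose 4.51-fold with that library left out (adjusted p = 0.000241). The endothelial and mural markers that were high in control replicate 3 moved with it, and their part in the Nes value was not tested.

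**Figure D3:**
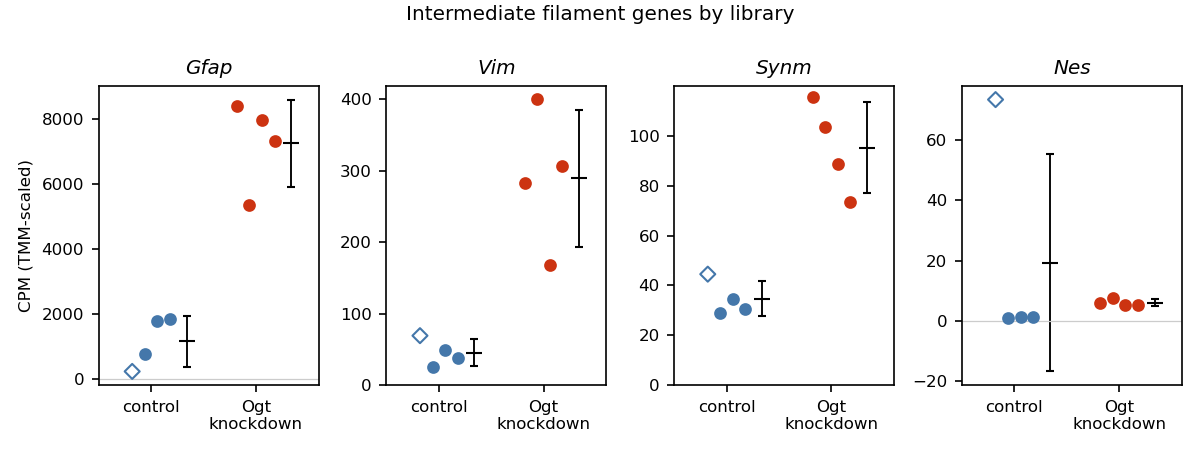
CPM of Gfap, Vim, Synm and Nes in each library, with the mean and SD of each group (n = 4); open diamonds mark control replicate 3. For Gfap, Vim and Synm all knockdown points lie above all control points, and for Nes the 73.4 CPM of control replicate 3 lies above every other point and stretches the SD bar below 0.

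Of 7 secreted proteins 4 rose with all libraries, against 13.4% of all genes called higher. Among them was the gene with the largest fold of the 31. Lcn2, lipocalin-2, an acute-phase protein that binds bacterial siderophores, stood at 0.190, 3.01, 0.870 and 2.76 CPM in the controls and at 10.3, 113, 4.53 and 24.7 CPM in the knockdown libraries. The groups did not overlap, but knockdown replicate 3 was far above the other 3. Lcn2 rose 22.4-fold (log2 4.49, SE 1.15, edgeR adjusted p = 0.0184). Leaving out 1 library at a time gave folds of 7.74 (without knockdown replicate 3) to 28.9, and it did not pass when control replicate 5 was left out (adjusted p = 0.0503). The fold was 17.4 without control replicate 3 (adjusted p = 0.0142).

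Timp1, an inhibitor of matrix metalloproteinases, stood at 0.650, 2.76, 8.48 and 5.15 CPM against 24.2, 79.7, 16.6 and 27.4 CPM, again with knockdown replicate 3 the highest. It rose 8.61-fold (log2 3.11, SE 0.75, adjusted p = 0.0147) and stayed called without each library in turn, at 5.30-fold without knockdown replicate 3, 6.67-fold without control replicate 3 and 12.8-fold without control replicate 5. Serpina3n, a serine protease inhibitor, stood at 20.03, 109, 171 and 205 CPM against 723, 399, 486 and 701 CPM, with no overlap. It rose 4.57-fold (log2 2.19, SE 0.58, adjusted p = 0.0206), but not without control replicate 4 (adjusted p = 0.0641) or knockdown replicate 2 (adjusted p = 0.0510). It rose 3.56-fold without control replicate 3 (adjusted p = 0.000823). Serpina3n has close paralogs beside it, so how its reads were assigned is uncertain.

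Ptx3, pentraxin 3, a soluble protein of innate immunity, stood at 0.379, 0.292, 0.548 and 0.212 CPM in the controls and at 1.06, 11.2, 0.320 and 1.27 CPM in the knockdown libraries. Knockdown replicate 3 was again far above the rest, and knockdown replicate 4 lay among the controls. Ptx3 rose 9.55-fold (log2 3.26, SE 1.01, adjusted p = 0.0384), but 2.46-fold with no call without knockdown replicate 3 (adjusted p = 0.119). The fold was 9.60 without control replicate 3 (adjusted p = 0.0444). Nor did it pass when control replicate 4 was left out (adjusted p = 0.0992), or 5 (adjusted p = 0.0676) or 6 (adjusted p = 0.102).

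The other 3 secreted members passed only once control replicate 3 was left out. Cp, ceruloplasmin, a copper-carrying ferroxidase, stood at 26.1 CPM in that library and at 3.59, 5.56 and 3.15 CPM in the other controls, against 17.6, 21.5, 11.9 and 17.7 CPM. Its log2 fold change went from 0.84 (adjusted p = 0.359) to a 4.17-fold rise (adjusted p = 0.00038). Clcf1, a cytokine of the interleukin-6 family, stood at 1.57 CPM against 0.292, 0.387 and 0.340 CPM in the controls, and at 1.79, 2.24, 1.67 and 1.30 CPM in the knockdown libraries. It went from a log2 fold change of 1.43 (adjusted p = 0.0804) to a 5.07-fold rise (adjusted p = 0.000736). Srgn, serglycin, a granule proteoglycan of blood and vessel cells, stood at 8.31 CPM against 0.626, 0.298 and 0.424 CPM, and at 3.05, 2.63, 1.29 and 1.44 CPM in the knockdown libraries. Its log2 fold change turned from -0.20 (adjusted p = 0.904) to a 4.75-fold rise (adjusted p = 0.00323).

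Among surface proteins, 5 rose with all libraries, against 13.4% of all genes called higher. S1pr3, a receptor for sphingosine-1-phosphate, stood at 18.1, 9.48, 11.2 and 10.02 CPM against 45.9, 62.6, 27.0 and 42.8 CPM, apart in every library, and rose 3.65-fold (log2 1.87, SE 0.28, edgeR adjusted p = 0.00142). Cd44, the hyaluronan receptor, stood at 1.65, 9.65, 7.96 and 9.96 CPM against 28.3, 47.7, 25.1 and 26.2 CPM and rose 4.35-fold (log2 2.12, SE 0.49, adjusted p = 0.0116). It was also apart between the groups, with control replicate 3 the lowest. Cd109, a membrane-anchored co-receptor of transforming growth factor beta, stood at 0.893, 1.80, 3.75 and 3.28 CPM against 18.6, 18.2, 13.1 and 18.2 CPM. The knockdown libraries lay close together far above the controls, a 6.95-fold rise (log2 2.80, SE 0.40, adjusted p = 0.00108). The folds of these 3 genes without control replicate 3 were 4.34 for S1pr3, 3.45 for Cd44 and 5.70 for Cd109, all called.

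Emp1, a small tetraspan membrane protein, stood at 4.03, 1.59, 2.80 and 2.24 CPM against 11.7, 15.9, 9.14 and 7.57 CPM and rose 4.14-fold (log2 2.05, SE 0.33, adjusted p = 0.00189). Its groups did not overlap, and without control replicate 3 the fold was 4.95. Steap4, a metalloreductase induced in inflammation, stood at 0.866, 0.292, 0.435 and 0.439 CPM against 1.04, 4.78, 1.33 and 1.44 CPM. The groups were apart by a small margin, with knockdown replicate 3 far above the other 3. Steap4 rose 4.20-fold (log2 2.07, SE 0.57, adjusted p = 0.0218), was 2.49-fold higher without knockdown replicate 3 and 5.38-fold higher without control replicate 3, and did not pass with control replicate 4 left out (adjusted p = 0.0621), or 5 (adjusted p = 0.0566) or 6 (adjusted p = 0.0607).

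A further 2 surface proteins passed only without control replicate 3. Tm4sf1, a membrane protein abundant in endothelium, stood at 26.3 CPM in that library and at 1.29, 0.821 and 1.57 CPM in the other controls, against 1.87, 4.78, 3.25 and 4.03 CPM. Its log2 fold change turned from -1.10 (adjusted p = 0.459) to a 2.82-fold rise (adjusted p = 0.0103). Slc10a6, a transporter of sulfated steroids, was near the limit of detection, at 0.135, 0, 0.0322 and 0 CPM against 0.334, 0.543, 0.107 and 0.306 CPM. A floor of 3 counts corresponds to between 0.0212 and 0.0626 CPM in these libraries. Slc10a6 had an adjusted p of 0.0869 with all libraries and 0.0145 without control replicate 3, where it entered the test through the knockdown libraries alone. No fold is given, since 2 of the control values are 0. The myeloid receptors did not pass either way: Cd14, the lipopolysaccharide co-receptor, ranged from 0.340 to 0.650 CPM in the controls and 0.160 to 1.10 CPM in the knockdown libraries (adjusted p = 0.310), and Plaur, the urokinase receptor, from 0.209 to 1.92 and 0.400 to 1.23 CPM (adjusted p = 0.951).

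Of 6 enzymes, 4 rose with all libraries, against 13.4% of all genes called higher. Ggta1, which adds alpha-galactose to surface glycans, stood at 5.93, 5.14, 7.39 and 6.62 CPM against 29.5, 25.5, 26.7 and 28.4 CPM. Both groups were tight and far apart, which gave the smallest p of the 31 genes (4.38-fold, log2 2.13, SE 0.16, edgeR adjusted p = 9.1e-05). Tgm1, a transglutaminase that crosslinks proteins, stood at 0, 3.47, 3.17 and 3.65 CPM against 33.8, 88.4, 19.0 and 45.7 CPM. No read was counted in control replicate 3, and all knockdown libraries were above all controls. Tgm1 rose 18.1-fold (log2 4.18, SE 0.99, adjusted p = 0.0136) and 13.6-fold without control replicate 3 (adjusted p = 0.000414). Aspg, an asparaginase, rose 3.96-fold from a control range of 4.03 to 7.05 CPM to 17.1 to 25.0 CPM (log2 1.99, SE 0.21, adjusted p = 0.000329). With control replicate 3 left out, Ggta1 was 4.29-fold and Aspg 3.63-fold higher, both called.

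B3gnt5, a glycosyltransferase of glycolipids, stood at 0.352, 0.877, 0.854 and 0.467 CPM against 2.33, 2.50, 0.986 and 1.41 CPM and rose 2.84-fold (log2 1.51, SE 0.44, adjusted p = 0.0286). The groups did not overlap by a small margin, but it did not pass with any of these left out, control replicate 6 (adjusted p = 0.0839), knockdown replicate 2 (adjusted p = 0.0834) or knockdown replicate 3 (adjusted p = 0.0607). The remaining enzymes overlapped. Ptgs2, cyclooxygenase-2, ranged from 0.0835 to 3.03 CPM in the controls and 1.20 to 1.74 CPM in the knockdown libraries (adjusted p = 0.982). Sphk1, which makes sphingosine-1-phosphate, the ligand of the S1pr3 receptor, ranged from 4.33 to 6.49 and 4.17 to 6.37 CPM (log2 -0.25, adjusted p = 0.438).

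Of 5 matrix, adhesion and chaperone genes 1 rose with all libraries, near the 13.4% of all genes called higher. Thbs1, thrombospondin 1, a matrix protein that astrocytes secrete, stood at 4.39, 3.68, 3.37 and 5.16 CPM against 6.51, 5.21, 8.78 and 8.06 CPM, narrowly apart, and rose 1.72-fold (log2 0.78, SE 0.23, edgeR adjusted p = 0.0310; 1.75-fold without control replicate 3). It did not pass with any of these left out, control replicate 4 (adjusted p = 0.0966), control replicate 5 (adjusted p = 0.0897), knockdown replicate 2 (adjusted p = 0.0579), knockdown replicate 4 (adjusted p = 0.107) or knockdown replicate 5 (adjusted p = 0.0926). Tnc, tenascin C, ranged from 2.27 to 4.80 CPM in the controls and 4.13 to 7.20 CPM in the knockdown libraries (log2 0.58, adjusted p = 0.155). Fbln5, an elastic fibre protein, ranged from 6.43 to 10.4 and 6.18 to 11.97 CPM (adjusted p = 0.830). Both overlapped between the groups. Amigo2, an adhesion protein, ranged from 32.7 to 52.4 and 29.5 to 34.9 CPM (log2 -0.34, adjusted p = 0.160). Hspb1, a small heat shock protein, stood at 38.8 CPM in control replicate 3 and at 5.51, 5.93 and 5.57 CPM in the other controls, against 12.4, 20.8, 9.54 and 16.8 CPM. Its log2 fold change was 0.09 with all libraries (adjusted p = 0.932), and it rose 2.61-fold without that library (adjusted p = 0.00228).

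By kind, 9 of the 11 shared genes rose, Hspb1 and Cp being the exceptions, with a median log2 fold change of 2.12. Of the 11 injury genes 5 rose (Tgm1, Ptx3, Cd109, Emp1 and B3gnt5; median 1.51), of the 4 inflammation genes 1 rose (Ggta1; median -0.06), and of the 5 others 2 rose (Synm and Thbs1; median 0.58). Without control replicate 3 the counts were 11 shared, 8 injury, 2 inflammation and 3 others. Slc10a6, among the 8, was tested there through the knockdown libraries alone. Over all genes, 13.4% were called higher with all libraries and 18.1% without control replicate 3. The kinds were not tested against each other, and the inflammation kind holds only 4 genes, among them Srgn, whose direction turned with control replicate 3. The 11 genes called with all libraries and without each library in turn were Gfap, Vim, Synm, Timp1, S1pr3, Cd44, Cd109, Emp1, Ggta1, Tgm1 and Aspg. The same count was not taken over all genes.

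Per length the genes differed widely. In RPKM (CPM per kilobase of the deposited gene length) Gfap had the highest level in both groups, 276 in the controls and 1724 in the knockdown libraries, followed by Serpina3n at 61.2 and 280. Vim was at 9.56 and 61.0 RPKM and Timp1 at 4.80 and 41.6 RPKM. A group mean of at least 1 RPKM was reached by 17 of the 31 genes in the controls and by 20 in the knockdown libraries. In CPM, 7 genes had a control mean under 1 (Steap4, Clcf1, Ptx3, Slc10a6, B3gnt5, Cd14 and Plaur), so their fold changes rest on few reads. Gfap alone made up 35.7% of the summed CPM of the 31 genes in control replicate 3, 73.5% to 82.6% in the other controls and 78.0% to 88.9% in the knockdown libraries.

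Within the knockdown group replicate 3 had the highest level for 20 of the 31 genes and replicate 4 the lowest for 18. Within the controls replicate 3 was the highest for 17 and the lowest for 10. Leaving out both libraries numbered 3 left 21 of the 30 then tested, against 23.5% of all genes.

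General astrocyte markers, which are not among the 31 genes, were set beside the reactive genes. Whether these markers change with reactivity too was not tested. Of 18 such markers 3 rose (Sox9, a transcription factor, 3.69-fold, edgeR adjusted p = 0.0288; Atp1b2, a sodium pump subunit, 2.71-fold, adjusted p = 0.0398; and Slc1a2, a glutamate transporter, 2.02-fold, adjusted p = 0.0492) and none fell. With 1 library left out at a time, Sox9 and Atp1b2 each passed in 2 of 8 fits and Slc1a2 in 3, all 3 of them without control replicate 3 or 5 and none without control replicate 4 or 6. Over all genes 13.4% were called higher, so 3 of 18 is near the background. The count was 9 with DESeq2 (17.8% of all genes), 9 without control replicate 3 (18.1%) and 14 with limma-voom (26.3%). At an unadjusted p under 0.05 it was 9 and, as with these alternatives, no marker was lower. Sox9 also stands in the list of signalling genes below. The median log2 fold change of the 18 was 1.02, and 0.70 without control replicate 3. In 10 of the 18 every knockdown library lay above every control library, against 17.1% of all genes. Without control replicate 3 this was again 10, against 23.1%. The ratio of Gfap to the summed markers was between 0.126 and 0.313 in the controls and between 0.723 and 0.845 in the knockdown libraries. Its log2 mean was -2.31 ± 0.64 and -0.36 ± 0.10 (SD, n = 4), a difference of 1.95 (exact two-sided permutation test over 70 assignments, p = 0.0286, the smallest this design allows). Per astrocyte marker, 6 genes (Gfap, Serpina3n, Timp1, Cd44, Tgm1 and Cd109) had all 4 knockdown libraries above all 4 controls, 2 (Fbln5 and Amigo2) had them below and 23 overlapped. By the same ratio 2.11% of the 19912 genes lay above and 45.5% below. Without control replicate 3, whose astrocyte markers were the lowest, these counts were 17, 2 and 12, against 6.21% of all genes above and 46.4% below.

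**Figure D4:**
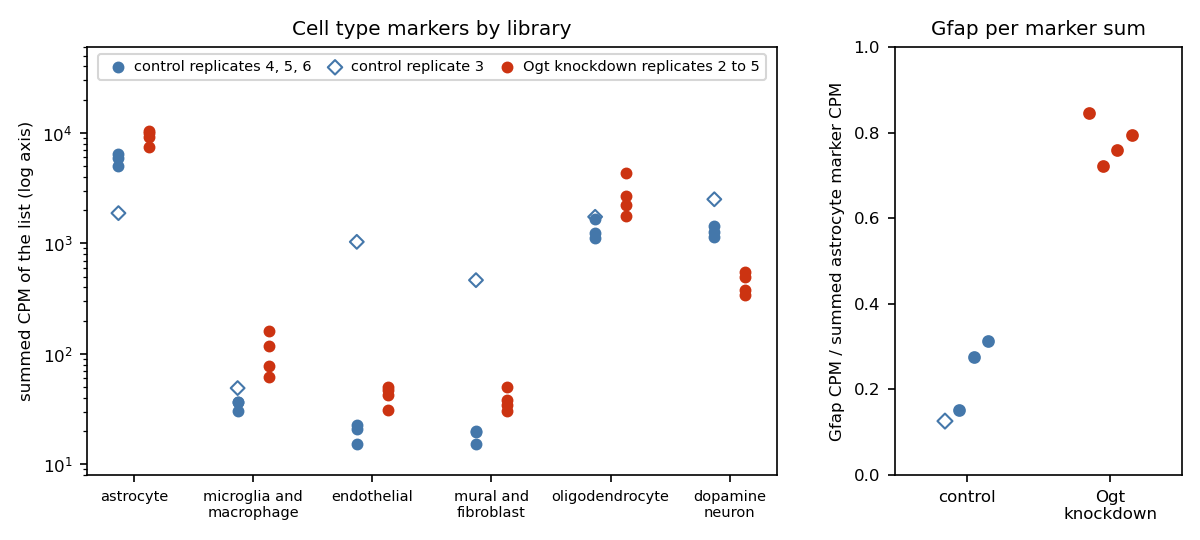
Left, summed CPM of the marker lists of each cell type in each library, on a log axis; right, ratio of Gfap CPM to the summed astrocyte markers in each library; open diamonds mark control replicate 3. Astrocyte and microglia sums are higher in all knockdown libraries than in all controls, dopamine neuron sums are lower, and the Gfap ratio lies at 0.723 to 0.845 against 0.126 to 0.313.

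Markers of other cells moved as well, where over all genes 13.4% were called higher and 15.1% lower. Of 14 microglia and macrophage markers 10 rose, their sum going from 30.3 to 49.0 CPM in the controls to 61.9 to 161 CPM, with Laptm5 (6.23-fold, edgeR adjusted p = 0.000817) and Tyrobp (9.98-fold, adjusted p = 0.00117) among those of smallest p. Csf1r, Itgam and Siglech were among those that did not pass. Of 10 oligodendrocyte markers 6 rose (Cnp 1.82-fold, adjusted p = 0.00457), and of 5 ependymal markers 2 rose (Rarres2 and Dynlrb2). Of 8 dopamine neuron markers 7 fell, all but Lmx1b, for example Slc18a2, the vesicular monoamine transporter (3.98-fold lower, adjusted p = 0.000241). Of 8 blood myeloid markers 4 had enough counts to test and none passed. Their sum went from between 0.606 and 0.866 CPM to between 1.24 and 5.14 CPM, with S100a8, S100a9, Plac8, Retnlg, Cxcr2 and Mpo at 0 in at least 1 library. At an unadjusted p under 0.05, 1 blood myeloid marker was higher, DESeq2 called 1 and limma-voom called none. Without control replicate 3, edgeR tested 6 blood myeloid markers and called 2 higher, against 18.1% of all genes. Whether any of them entered that test through the knockdown libraries alone was not examined.

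No endothelial or mural marker passed with all libraries. At an unadjusted p under 0.05, 1 of the 10 endothelial and 2 of the 10 mural and fibroblast markers were lower. Limma-voom called 3 of each higher, against 26.3% of all genes by that tool, and DESeq2 called none. Without control replicate 3, edgeR called 6 endothelial and 5 mural and fibroblast markers higher, against 18.1% of all genes. The endothelial sums were 15.3 to 22.8 CPM in the remaining controls and 31.3 to 49.9 CPM in the knockdown libraries. None of the 6 oligodendrocyte precursor markers passed with or without that library, with 1 higher at an unadjusted p under 0.05, none by DESeq2 and 1 by limma-voom. The part of these cell types in the levels of the reactive genes was not tested.

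Genes near the reactive programme were counted in 2 further lists. Over all genes 13.4% were called higher and 15.1% lower with all libraries, and 18.1% and 16.8% without control replicate 3. Of 12 interferon, antigen presentation, complement and related reactive genes 10 rose and none fell (median log2 fold change 1.87). The smallest p values were those of Serping1, the C1 inhibitor (5.23-fold, edgeR adjusted p = 0.000935), H2-D1, a class I histocompatibility gene with near-identical relatives (2.78-fold, adjusted p = 0.00101), C3, the central complement protein (6.48-fold, adjusted p = 0.00151), and Osmr, the oncostatin M receptor (4.08-fold, adjusted p = 0.00192). The exceptions were Cxcl10 (adjusted p = 0.0680) and Fkbp5 (adjusted p = 0.571). Without control replicate 3 the count was 11. At an unadjusted p under 0.05, and with DESeq2 or limma-voom, none was lower.

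Of 27 ligands, receptors, kinases and transcription factors of the signals that act on astrocytes, 23 had enough counts, and 14 rose and 1 fell (median log2 fold change 0.90). Socs3, a feedback inhibitor that STAT3 induces, rose 4.57-fold (edgeR adjusted p = 0.000567) and Jak2 1.69-fold (adjusted p = 0.00257). Cebpd, a transcription factor of the acute-phase response, rose 7.72-fold (adjusted p = 0.00308), and Lif, a ligand of the interleukin-6 family, rose 4.07-fold (adjusted p = 0.00442). Jak1 was the gene that fell (1.39-fold lower, adjusted p = 0.0463), but with 1 library left out at a time it passed in 2 of 8 fits, those without knockdown replicate 3 or 4. The ligands Il6, Osm, Il1b and Tnf had too few counts to test with all libraries. Without control replicate 3, 18 of 24 rose and none fell. The shares of all genes called higher were 13.4% with all libraries and 18.1% without control replicate 3.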

How the data were processed

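The authors deposited 1 table of raw counts per gene for all 8 libraries, counted over GENCODE vM30 exons by featureCounts 2.0.3, per the file headers. The command in the header sets neither strand nor pair counting nor multi-mapping, so sense and antisense reads cannot be told apart and reads from near-identical copies were not counted. FastQC, Trimmomatic and STAR are named per the submitters' processing notes, which give mm10, while vM30 belongs to a later build, so no coordinate of the table is printed. The deposited gene length in bases, served for RPKM. The exons of 11 of the 31 genes overlapped those of another gene, in at most 8.2% of their bases (Clcf1).

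Gene symbols were matched for 52073 of 56691 IDs, and IDs without a symbol (4618) stayed in the tests. Low genes were removed with filterByExpr, libraries were scaled by TMM, and the groups were compared with edgeR 4.0.16 (glmQLFit with robust estimation, glmQLFTest, two-sided, Benjamini-Hochberg over all 19912 genes tested, threshold 0.05) in R 4.3.3, checked on simulated counts. DESeq2 1.42.0 and limma 3.58.1 were alternatives. No 2 libraries of the same group agreed within sampling noise. The members and all lists were chosen with earlier results of these data known. Named were all 31 members, up to 4 genes of smallest p per other list, exceptions to a count, and Ogt, except 1 marker that is not reported here. The number of libraries limits the precision, and floors of 3 counts cover counting error only.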

Additional observations from a re-analysis of the deposited data

Results flagged for a closer look

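In 15 of 62 checks (31 genes in 2 groups of 4 libraries) 1 library lay far from the other 3, where chance gives about 1 in 20. Control replicate 3 was the highest control for Nes (73.4 CPM, the others at most 1.51), Tm4sf1 (26.3 CPM, the others at most 1.57), Hspb1 (38.8 CPM, the others at most 5.93), Srgn (8.31 CPM, the others at most 0.626), Cp (26.1 CPM, the others at most 5.56), Clcf1 (1.57 CPM, the others at most 0.387) and Plaur (1.92 CPM, the others at most 0.480). It was the lowest for Tgm1, at 0 CPM against 3.17 to 3.65. Knockdown replicate 3 was the highest knockdown library for Ptx3 (11.2 CPM, the others at most 1.27), Steap4 (4.78 CPM, the others at most 1.44), Cd44 (47.7 CPM, the others at most 28.3) and Amigo2 (34.9 CPM, the others at most 30.0). Knockdown replicate 4 was the lowest for Cd109 (13.1 CPM, the others at least 18.2) and Cd14 (0.160 CPM, the others at least 0.977). Control replicate 6 was the lowest control for Sphk1 (4.33 CPM, the others at least 6.31).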

How the results depend on the processing

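The number of the 31 genes called higher (17) was 10 with no filter on low counts, 9 with the replicate block and 8 at a threshold of 0.01. Over all genes, 2032 of 33664, 480 of 19912 and 1116 of 19912 were called higher in these settings. The main fit called 2659 of 19912 higher. The count of the 31 ranged from 13 (without control replicate 4 or 5) to 24 when 1 library was left out, and from 16 to 23 under the other alternatives. The number of all genes called higher ranged from 1684 to 3723 with 1 library left out. Under those other alternatives it ranged from 2601 to 5229. The number called lower stayed at 0 except for 1 (Amigo2) with limma-voom, leave-one-out fits giving 0 throughout. Calls over all genes (5668) numbered 1258 with the replicate block, 9565 without both libraries numbered 3, 10208 with limma-voom and 2679 at a threshold of 0.01, and 3876 to 7198 with 1 library left out. Ogt kept its call under every alternative run, with log2 fold changes of -1.61 to -1.21 with 1 library left out. The log2 Gfap ratio difference was 1.72 to 2.16 with 1 library left out and 2.12 with the replicate block (exact p = 0.25, the smallest that 3 pairs allow). The deviations of same-numbered libraries from their group means had r of 0.104, 0.099 and 0.042 (replicates 3, 4 and 5). For replicates 3 and 4 that was the closest partner, and for 5 knockdown replicate 4 was closer (r of 0.044). Both libraries numbered 3 had the largest shares of counts on IDs without a symbol, 1.81% (control) and 1.32% (knockdown), against 0.327% to 0.693% in the others. The main fit did not take the numbers as pairs, and whether they mark a batch was not tested. The log2 fold changes of 3 genes turned positive under 5 alternatives, and the cause was not tested. With the replicate block they were 0.58 for Srgn, 0.54 for Tm4sf1 and 0.66 for Nes, none called. With the astrocyte marker score as a covariate, without control replicate 3, without both libraries numbered 3 and with limma-voom they were 3.53, 2.25, 2.15 and 1.96 for Srgn, 2.75, 1.496, 1.31 and 1.28 for Tm4sf1 and 3.61, 2.17, 2.04 and 1.87 for Nes. With 1 library left out their lowest values were -0.57 (without control replicate 5), -1.48 (without control replicate 5) and -2.08 (without control replicate 4). The 8 genes called higher in all 19 fits at the 0.05 threshold were S1pr3, Aspg, Vim, Gfap, Ggta1, Cd109, Emp1 and Synm. No such count was taken over all genes.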
